A study of Mus musculus with 12 samples.

Results

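The comparison described here is that of hGFAP transgenic with wildtype olfactory bulb at P23, which is 23 days after birth. It uses 6 of the 12 arrays of the series, chosen by genotype and age as their labels give them. The wildtype group holds arrays 4, 11 and 12 and the transgenic group arrays 5, 6 and 7, all from bulbs of FVB/N mice, an inbred strain. The other 6 arrays are of the same genotypes at 4 months and entered the fit to share its estimate of spread. The transgene name was read as human GFAP, and the labels give no promoter, line, copy number, litter or sex. Nothing in them says that each array came from a separate animal, so the p-values measure the spread between these samples, which may be technical. Throughout, the values of a gene are given in the order 4, 11 and 12 for wildtype and 5, 6 and 7 for transgenic arrays.

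GFAP is the main intermediate filament protein of astrocytes, the glial cells that buffer ions and transmitters and feed neurons. Too much of it, or a mutated form, gathers with small heat shock proteins into Rosenthal fibers, the inclusions that mark Alexander disease. Cells under oxidative stress raise genes of glutathione synthesis and detoxification through the transcription factor Nrf2, and metal ions raise the metallothioneins through MTF-1.

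Relative to the bulk of the array, the transgenic bulb at P23 had more RNA of some metal-binding, redox and detoxification genes, of 2 small heat shock proteins, and of microglial and antigen-presenting genes. Lower RNA was found for the astrocyte genes Ntsr2, a receptor, and Dio2, an enzyme, and, less stably, for Gjb6, a gap junction channel. A scattered set of neuronal, mitochondrial and connective tissue genes was called lower too. Of 22 lower genes followed through 23 alternatives to the processing, described below, 3 kept their call in all: Ntsr2, Dio2 and Islr. The lists of synapse, neuronal channel, interneuron, mitral and tufted cell and neuroblast genes held 0 lower calls. Of 7453 probe sets tested, 122 were higher (1.64 percent) and 35 lower (0.47 percent) in transgenic bulb at an adjusted p under 0.05 (limma with Benjamini-Hochberg adjustment). Counted by gene, each represented by its brightest probe set, 97 of 5664 were higher (1.71 percent) and 30 lower (0.53 percent). On all 157 called probe sets the groups did not overlap. Groups also failed to overlap on 503 tested probe sets with higher transgenic values (6.75 percent) and 830 with lower ones (11.1 percent). The higher calls were the larger ones: 53 exceeded 2-fold and their median fold was 1.89, whereas 1 lower call exceeded 2-fold and the median fold was 1.42. The filter on low signal used the mean over all 12 arrays, and 23 of the higher calls and 0 of the lower ones had a mean wildtype signal at P23 below its limit of 689, so these 23 were tested because of their levels on the other arrays. Ephx1, Cp, Ccl2, Cxcl1, H2-Aa and the called probe sets of Bag3, Lcn2 and Rpl19, all described below, were among them. Of the 97 higher genes, 66 belonged to none of the immune and lysosome lists. Each of those lists held only 7 to 37 tested genes, so most of the 5664 tested genes lay outside them too. The 66 therefore say little about how far the response was immune.

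**Figure D1:**
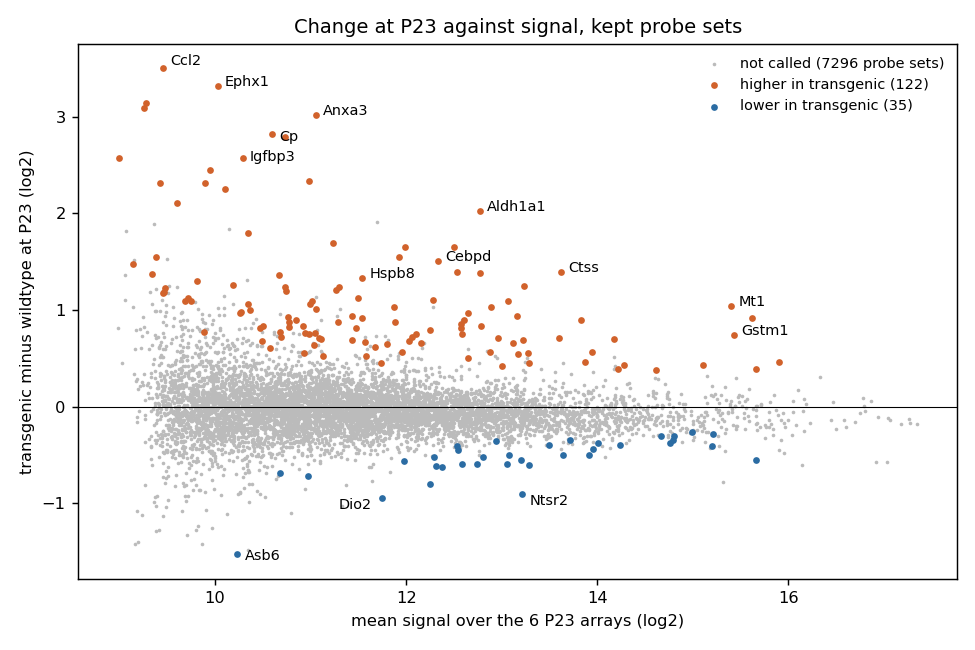
Difference between transgenic and wildtype bulb at P23 (vertical axis, log2) against the mean signal over the 6 arrays (horizontal axis, log2), 1 point for each of the 7453 tested probe sets. The 122 higher calls reach 3.50, while all of the 35 lower calls but Asb6 stay above -1. The filter on low signal set which dim probe sets could appear.

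Pearson correlations over probe sets lay between 0.964 and 0.976 within a group and between 0.96 and 0.971 across groups. The 3' to 5' ratio of the beta-actin controls ran from 1.21 to 1.28 in wildtype and from 1.18 to 1.43 in transgenic bulb, and that of Gapdh from 0.828 to 0.939 and from 0.794 to 0.821. The bacterial control probe sets (BioB, BioC, BioDn and CreX) were brighter on average in the transgenic group, with means from 16724 to 19628 against 15229 to 17023. Whether they follow the amount of tissue RNA was not tested. Scaling the arrays to these controls turned the split of calls to 90 higher and 482 lower and moved the median change of all tested probe sets from -0.04 to -0.24. Directions throughout are therefore relative to the bulk of the array. By unadjusted p under 0.05, the threshold for all such counts below, 310 of the 5664 tested genes were higher (5.47 percent) and 475 lower (8.39 percent). Xist read between 13780 and 18170 on all 6 arrays, while Kdm5d was at the floor on all 6, so the groups did not differ by these genes of sex.

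The targeted gene could not check the labels. The brighter Gfap probe set read 5683, 8355 and 8004 in wildtype and 8180, 7409 and 10070 in transgenic bulb, and the groups overlapped (log2 change 0.23 ± 0.15, SE, adjusted p = 0.568). The dimmer one read 1097, 1394 and 1649 against 2137, 1883 and 1821, without overlap but also without passing (0.51 ± 0.19, adjusted p = 0.223). Both were designed on mouse Gfap, and whether they read the human transcript was not tested.

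Metallothioneins, which bind zinc and copper and scavenge radicals, were among the brightest probe sets that changed. Since all 3 genes rose and lie side by side on chromosome 8, stretches before their start sites are shown, from RefSeq (GRCm38.p6, plus strand). Capitals mark the metal response element core TGCNCNC on either strand.
Mt1, chr8:94179046-94179088: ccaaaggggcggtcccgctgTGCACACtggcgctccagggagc
Mt2, chr8:94172375-94172594: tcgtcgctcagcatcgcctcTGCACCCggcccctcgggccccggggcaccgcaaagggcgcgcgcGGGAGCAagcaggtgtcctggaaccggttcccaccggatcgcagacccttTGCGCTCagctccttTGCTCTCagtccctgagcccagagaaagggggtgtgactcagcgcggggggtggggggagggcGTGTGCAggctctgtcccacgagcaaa
Mt3, chr8:94152357-94152383: GGGAGCAtctttgctgctgctgctgct
The pieces shown are trimmed around their matches, of which they hold 1, 5 and 1. That of Mt1 ends at the start site and that of Mt2 ends 23 bases before it. The Mt3 piece lies from 250 to 223 bases before the start site. The whole windows of 300 bases, which reach past the start site, hold 3 matches for Mt1, 6 for Mt2 and 3 for Mt3. The core is short and common: it was found in 60.6 percent of the 5959 windows of 300 bases around start sites of tested genes, in 54.9 percent of 91 windows of higher genes and in 66.7 percent of 33 windows of lower genes.

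Mt1 read 25510, 33850 and 31820 in wildtype and 63160, 64510 and 58580 in transgenic bulb. Mt2 read 30800, 40680 and 39840 against 82240, 60840 and 66890. Both rose on every transgenic array, with the lowest transgenic value above the highest wildtype one, by log2 changes of 1.04 ± 0.10 (adjusted p = 2.49e-05) and 0.92 ± 0.13 (0.000656). Mt3, the metallothionein of neurons and astrocytes, read 48150, 61950 and 47860 against 70420, 73920 and 71570, a smaller rise of 0.46 ± 0.09 (0.0127). Its call ended when any of 3 arrays was left out singly, with an adjusted p of 0.0655 without wildtype array 12, and under bacterial control scaling the change was 0.26 (adjusted p = 0.201). Cp, the copper-carrying ferroxidase ceruloplasmin, read 677.9, 831.9 and 350.8 in wildtype and 4272, 3875 and 4213 in transgenic bulb. This 7.06-fold rise (2.82 ± 0.27, adjusted p = 1.99e-05) was the largest among metal and iron genes. Cp was tested because of its levels on the other arrays, since its mean wildtype signal lay below the filter limit of 689. Fth1, the heavy chain of ferritin that stores iron, rose 1.31-fold (0.39 ± 0.07, adjusted p = 0.00511), but its second probe set stood at -0.08 ± 0.11 and bacterial control scaling ended the call (adjusted p = 0.185). Of 16 tested metal and iron genes 5 rose and 0 fell (0 lower by unadjusted p), and their median log2 change was 0.11 against -0.04 over all tested genes. Under bacterial control scaling 3 rose and the median was -0.09.

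Genes of glutathione synthesis and its partner, the thioredoxin system, rose by less than 2-fold. Gclc, the catalytic subunit that makes the first bond of glutathione, read 2734, 2480 and 2072 in wildtype and 3870, 3681 and 3963 in transgenic bulb (0.67 ± 0.12, adjusted p = 0.00773, and 0.0509 under bacterial control scaling). Gclm, the other subunit of that enzyme, read 1631, 1422 and 1682 against 2769, 1993 and 2095, with no overlap, and did not pass (0.52 ± 0.18, adjusted p = 0.194). Txnrd1, the reductase that recharges thioredoxin, rose from 4100, 3278 and 3789 to 6447, 5982 and 6908 (0.80 ± 0.11, adjusted p = 0.000485). Gpx3, a secreted glutathione peroxidase, rose 1.84-fold (0.88 ± 0.15, adjusted p = 0.00573), and Srxn1, which repairs peroxiredoxins, 1.44-fold (0.52 ± 0.12, adjusted p = 0.0351). Srxn1 lost its call when any of 5 arrays was left out singly (highest adjusted p = 0.135), and its second probe set stood at -0.39 ± 0.21. Of 25 tested genes of this system 4 rose and 0 fell (1 lower by unadjusted p), with a median of 0.13. With bacterial control scaling 2 rose, 1 fell and the median was -0.08.

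Detoxification enzymes held the largest rise of any called gene outside the immune lists. Ephx1, the epoxide hydrolase that opens reactive epoxides, read 458.2, 272.8 and 286.8 in wildtype and 2957, 3169 and 3824 in transgenic bulb, a rise of 3.32 ± 0.30 (adjusted p = 1.4e-05). Like Cp, Ephx1 had a mean wildtype signal below the filter limit of 689 and was tested because of its levels on the other arrays. Aldh1a1, which oxidises retinaldehyde and lipid aldehydes, read 3385, 3108 and 3929 against 13780, 13220 and 15360 (2.03 ± 0.10, 4.08-fold, adjusted p = 8.8e-08). For both genes the lowest transgenic array lay far above the highest wildtype array. A second, dim Aldh1a1 probe set, left out by the filter on low signal, overlapped between groups and stood at -0.44 ± 0.39. Nqo1, a quinone reductase, rose 2.18-fold (1.13 ± 0.24, adjusted p = 0.0228), a call that ended when any of 4 arrays was left out singly (highest adjusted p = 0.115). Gstm1, a glutathione transferase, went from 32390, 38170 and 32670 to 56210, 57160 and 58460 (0.74 ± 0.08, adjusted p = 0.000106). Its second, dimmer probe set overlapped between groups and did not pass (0.21 ± 0.14, adjusted p = 0.568). Gstp1 rose 1.31-fold (0.39 ± 0.08, adjusted p = 0.0121), with an adjusted p of at most 0.0611 when 1 array was left out and of 0.297 under bacterial control scaling, where the change was 0.18. Hmox1, haem oxygenase, read 4010, 4645 and 4182 against 5943, 5973 and 5047 and did not pass (0.40 ± 0.11, adjusted p = 0.085), nor did Gsta4 (0.91 ± 0.29, adjusted p = 0.154). Of 23 tested enzymes 5 rose and 0 fell (2 lower by unadjusted p), with a median of 0.20. Bacterial control scaling left 4 higher and 2 lower, with a median of -0.01.

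Among the transcription factors, Nfe2l2, which encodes Nrf2 itself, read 2672, 1624 and 2280 in wildtype and 4012, 3957 and 3405 in transgenic bulb (0.82 ± 0.16, adjusted p = 0.0127). Without transgenic array 5 its adjusted p was 0.0694. Mafk, a small Maf protein with which Nrf2 pairs, rose 1.52-fold (0.61 ± 0.14, adjusted p = 0.0408), and was chosen after its values were seen. Of the 9 called genes of glutathione, thioredoxin and detoxification, 8 had start site windows in the table used, and 2 of the 8 (Txnrd1 and Srxn1) held the antioxidant response core TGACNNNGC, in 2 of 12 windows. None of the 5 detoxification enzymes did (0 of 7 windows). For Txnrd1, 1 of its 3 windows held it. Stretches of Txnrd1, Nfe2l2 and Mafk, picked because they hold the core, in capitals on either strand, are shown from RefSeq (GRCm38.p6), since Nrf2 with small Maf proteins is known to bind this element.
Txnrd1, plus strand, chr10:82859094-82859142: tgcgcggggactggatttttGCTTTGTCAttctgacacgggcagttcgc
Nfe2l2, minus strand, chr2:75704875-75704913: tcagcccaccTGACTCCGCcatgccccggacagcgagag
Mafk, plus strand, chr5:139791503-139791535: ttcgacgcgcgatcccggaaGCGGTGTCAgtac
The core was found in 13.7 percent of windows of tested genes, 16.5 percent of windows of higher genes and 6.06 percent of windows of lower genes. The AP-1 core TGANTCA was in 5.4 percent, 12.1 percent and 3.03 percent of the same windows, and 11 windows of higher genes held it. Heat shock (GAANNTTC) and STAT (TTCNNNGAA) cores were in 7.69 and 5.5 percent of windows of higher genes against 5.5 and 6.36 percent of all. These shares are descriptions of letters, and no binding was measured.

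**Figure D2:**
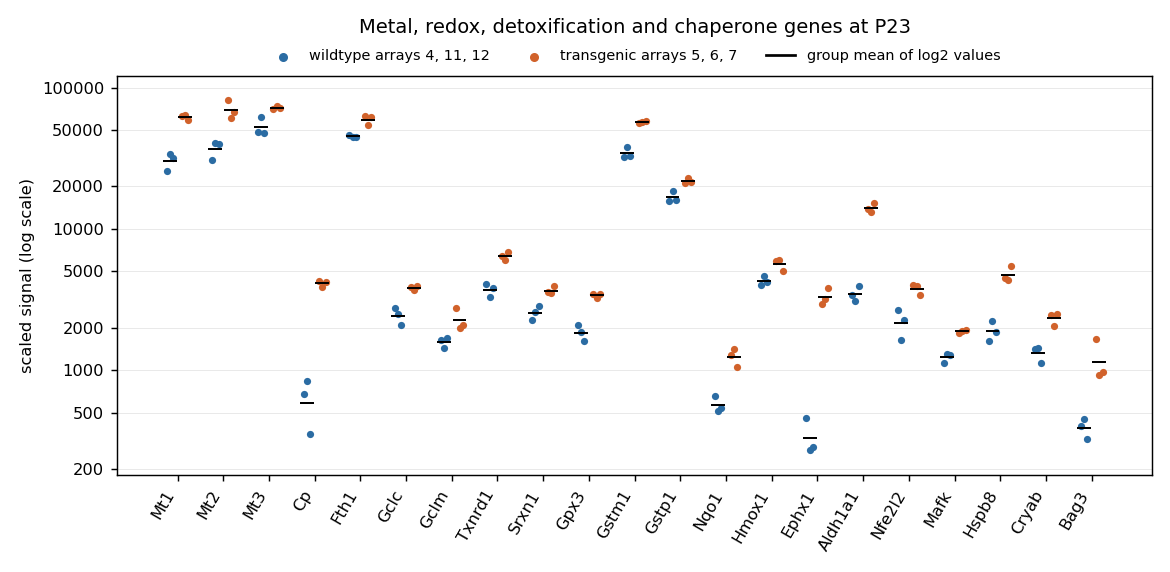
Scaled signal (vertical axis, log scale) of metal, redox, detoxification and chaperone genes on the 3 wildtype and 3 transgenic arrays at P23, 1 point an array, with bars at the mean of the log2 values. Ephx1, Cp and Aldh1a1 show the widest gaps, and Mt1, Mt2 and Gstm1 lie among the brightest probe sets shown.

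Cebpd, a C/EBP factor of acute stress and inflammation, rose from 2586, 3492 and 3202 to 9736, 8053 and 8508 (1.51 ± 0.12, adjusted p = 2.87e-06). Klf6 rose 1.70-fold and Ier3 1.60-fold, and both calls ended when any of 3 arrays was left out singly (highest adjusted p 0.07 and 0.0773). Of 29 tested immediate early and stress factors 4 rose and 0 fell (1 lower by unadjusted p), with a median of 0.24. Stat3, which many cytokine receptors activate, stood at 0.03 ± 0.15 (adjusted p = 0.974), and of 23 tested JAK-STAT and NF-kB genes 0 passed in limma and 1 by unadjusted p. Of 23 tested cytokine and growth factor receptors 4 rose and 0 fell (0 lower by unadjusted p), with a median of 0.18. Osmr, the oncostatin M receptor, read 758, 657.1 and 686.4 in wildtype and 2640, 2088 and 2590 in transgenic bulb (1.79 ± 0.17, adjusted p = 1.96e-05). Csf1r, the receptor on which microglia depend, rose 1.86-fold (0.89 ± 0.10, adjusted p = 5.67e-05). Its second, dimmer probe set overlapped between groups and did not pass (0.36 ± 0.37, adjusted p = 0.759).

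Of the small heat shock proteins, which hold misfolded proteins and are found in Rosenthal fibers, Hspb8 and Cryab rose. Hspb1 lay too near the floor to tell its direction. Hspb8 read 1612, 2234 and 1852 in wildtype and 4498, 4321 and 5421 in transgenic bulb (1.33 ± 0.15, adjusted p = 7.99e-05). Cryab, alpha-B crystallin, read 1421, 1427 and 1114 against 2453, 2046 and 2514 (0.83 ± 0.16, adjusted p = 0.0119), and lost its call when any of 3 arrays was left out singly (highest adjusted p = 0.0652). Hspb1 was left out by the filter: it read 426.7, 334.3 and 256.3 in wildtype and lay at the floor on all transgenic arrays, at least 1.59-fold lower, and did not pass in the fit without the filter (adjusted p = 0.42). Bag3, the co-chaperone of Hspb8, was chosen after its values were seen. One of its probe sets rose from 402.4, 448.9 and 325 to 1655, 929.5 and 966.2 (1.55 ± 0.32, adjusted p = 0.0156), while the brighter one stood at 0.18 ± 0.20. Of 24 tested chaperones 2 rose and 0 fell (3 lower by unadjusted p), and the median was -0.02. It was 0.04 under quantile scaling and 0.02 as deposited, and under bacterial control scaling 3 fell and the median was -0.23. Of 31 tested proteasome and ubiquitin genes 0 passed in limma; by unadjusted p 1 was higher and 5 were lower.

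Genes that astrocytes raise after injury rose in 8 of 22 tested cases, with 0 lower (0 by unadjusted p) and a median of 0.58. This list shares Cp, Aldh1a1 and Osmr with the groups above. Anxa3, a membrane-binding annexin, read 753.3, 646.8 and 857.4 in wildtype and 6439, 5950 and 5741 in transgenic bulb (3.01 ± 0.20, 8.08-fold, adjusted p = 4.17e-07). Nes, the intermediate filament nestin of neural precursors and reactive astrocytes, read 2028, 2056 and 1781 against 4676, 4121 and 3991 (1.12 ± 0.13, adjusted p = 0.000104). Serpina3n, a protease inhibitor, rose 1.47-fold (0.55 ± 0.09, adjusted p = 0.00304), and under bacterial control scaling its adjusted p was 0.0766. Vim, the filament partner of GFAP, was left out by the filter and overlapped between groups, at 594.9, 913.5 and 229.4 against 599.8, 402.6 and 578.5. Nes was the 1 intermediate filament or linker gene of 10 tested that passed.

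Lists of secreted, matrix and lipid-carrying genes held a few called genes each, with medians near 0. Of 33 tested extracellular matrix and protease genes 3 rose and 1 fell, with a median of -0.04. Of 25 tested growth factors and their binding proteins 2 rose and 0 fell, 13 changes were negative, and the median was -0.01. Igfbp3, which binds insulin-like growth factors, was the 1 called gene with several tested probe sets on which all of them passed: 822, 1281 and 693.1 rose to 4512, 4428 and 4728 (2.34 ± 0.24, adjusted p = 4.11e-05), and the second rose by 2.58 ± 0.38. That second probe set had a mean wildtype signal of 553.3, below the filter limit of 689. It was tested because of its levels on the other arrays. Ccn2, connective tissue growth factor, went from 3784, 2940 and 3501 to 7770, 6441 and 7790 (1.11 ± 0.13, adjusted p = 0.000196). Dkk3, a secreted relative of Wnt inhibitors, rose 2.02-fold (1.01 ± 0.15, adjusted p = 0.00148). Sparc, a matrix protein of glia and vessels, rose 1.76-fold (0.82 ± 0.15, adjusted p = 0.00631), and Lgals1, galectin-1, 1.83-fold (0.87 ± 0.13, adjusted p = 0.00169). Tnc, the tenascin of injured brain, lost its call when any of 3 arrays was left out singly (0.97 ± 0.22, adjusted p = 0.0353, at most 0.162). Of 23 tested lipid transport and storage genes 2 rose and 0 fell (4 higher and 3 lower by unadjusted p), 12 changes were negative, and the median was -0.01. The 2 were Abca1, which exports cholesterol (0.71 ± 0.13, adjusted p = 0.00719), and Apod, a lipid-binding lipocalin (0.70 ± 0.13, adjusted p = 0.00739). A second Abca1 probe set overlapped between groups and did not pass (0.36 ± 0.16, adjusted p = 0.352). Under bacterial control scaling the medians of these 3 lists were -0.25, -0.21 and -0.22, with 2 rises in each and 2, 2 and 1 falls.

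Markers of microglia and macrophages, the immune cells of the brain, rose in 12 of 18 tested cases with 0 lower (0 by unadjusted p), and all 18 changes were positive (median 0.96). Their summed signal ran from 46790 to 53370 over wildtype and from 90620 to 101100 over transgenic arrays. Over all tested genes 1.71 percent were higher. The 18 were those of 27 markers on the array that passed the filter, which used the transgenic arrays too. Lyz2, for 1, had a mean wildtype signal of 430.3, below the filter limit of 689, and was tested because of its levels on the other arrays. The counts and sums therefore favor markers that are high in transgenic bulb. Ctss, a cathepsin of these cells, read 7296, 8460 and 7629 in wildtype and 19590, 20610 and 21070 in transgenic bulb (1.39 ± 0.08, adjusted p = 2.36e-07). In bulk tissue, more cells of a type and more RNA per cell cannot be told apart. The complement genes C1qa, C1qb and C1qc, neighbours on chromosome 4, rose by 1.25 ± 0.11, 1.55 ± 0.12 and 1.03 ± 0.12, and a second C1qb probe set stood at -0.32 ± 0.18. Complement and antigen presentation genes rose in 11 of 24 tested cases (1 lower by unadjusted p, median 0.80), lysosome genes in 6 of 37 (3 lower by unadjusted p, median 0.12) and interferon response genes in 2 of 17 (0 lower by unadjusted p, median 0.63). Lymphocyte and granulocyte markers passed in 1 of 7 tested cases, Ighm, with summed signals of 8975 to 10650 and 9487 to 14470.

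Markers of the other cell types gave fewer calls. Of 19 tested astrocyte markers 3 fell and 1, Mt3, rose, with a median of -0.20, and under bacterial control scaling 8 fell, 0 rose and the median was -0.40. Their summed signal of 471800 to 503700 in wildtype and 458800 to 482800 in transgenic bulb overlapped. Red blood cell markers varied most with array: their sum ran from 103700 to 212300 in wildtype and from 78970 to 132100 in transgenic bulb. Hba-a1, alpha globin, read 101100, 204800 and 168500 against 107900, 76500 and 128600 and did not pass (adjusted p = 0.226). Meningeal and fibroblast markers summed to 164200 to 205300 in wildtype and to 127200 to 148100 in transgenic bulb, and of 18 tested 2 fell. Mitral and tufted cell markers, of the output neurons of the bulb, summed to 76750 to 81400 against 66900 to 71970. None of 12 passed in limma (by unadjusted p 0 were higher and 5 lower, median -0.32), with Reln closest (-0.32 ± 0.08, adjusted p = 0.0507), and 3 fell under bacterial control scaling. Of 12 tested oligodendrocyte markers 1, Car2, fell and 1, Apod, rose, and the sums of 130800 to 142400 and 120900 to 133400 overlapped. Car2 fell by 0.37 but lost its call when any of 4 arrays was left out singly (at most 0.084) and under quantile scaling (adjusted p = 0.0513), whereas 6 of these markers fell under bacterial control scaling. Foxj1, a factor of ciliated ependymal cells, was the 1 tested marker of these cells and rose by 0.75 ± 0.18 (adjusted p = 0.0497, at most 0.187 without 1 array). The part of blood, meninges or cell makeup in the lower genes was not tested.

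**Figure D3:**
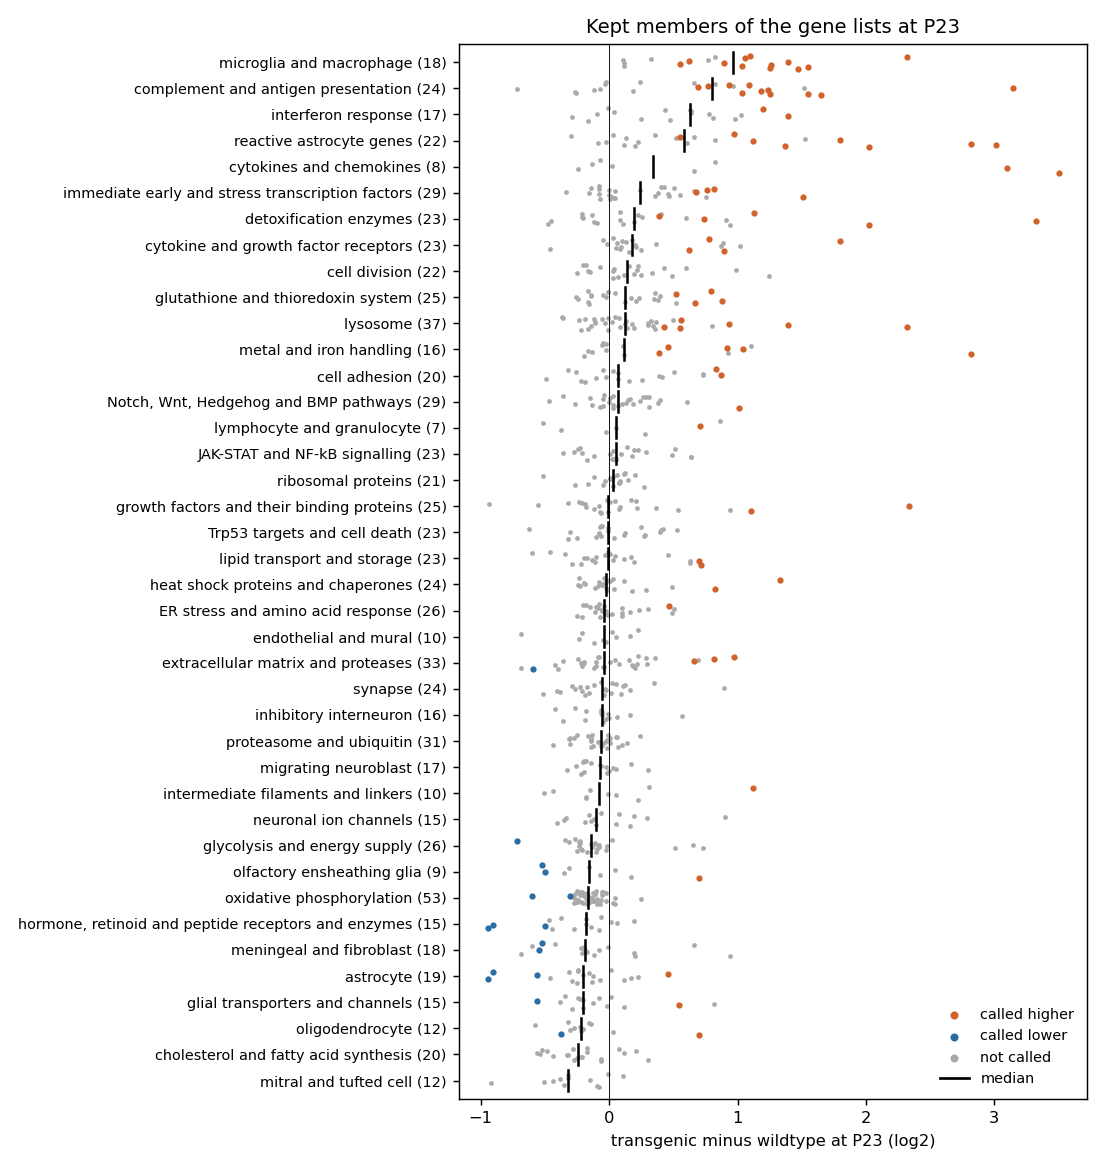
Differences between transgenic and wildtype bulb at P23 (horizontal axis, log2) of the tested members of each gene list with at least 7 of them (number in brackets), 1 point a gene, with a bar at the median. Microglial and complement lists lie furthest right, with medians of 0.96 and 0.80, and the mitral and tufted cell list furthest left, at -0.32.

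Among the lower genes of astrocytes were a receptor, an enzyme and 2 channels. Ntsr2, a neurotensin receptor of astrocytes, read 12290, 12370 and 14420 in wildtype and 6456, 7685 and 6776 in transgenic bulb (-0.90 ± 0.12, adjusted p = 0.000433). Dio2, the deiodinase with which astrocytes activate thyroid hormone, read 3790, 6105 and 4647 against 2464, 2340 and 2623 (-0.94 ± 0.15, adjusted p = 0.00249). Together with Islr, a leucine-rich repeat protein of connective tissue cells (-0.55 ± 0.08, adjusted p = 0.00136), these were the 3 of 22 named lower genes whose call held in all 23 alternatives. Gjb6, connexin 30 of astrocyte gap junctions, fell from 4873, 4655 and 5164 to 2940, 3343 and 3716 (-0.56 ± 0.13, adjusted p = 0.0413). Its call ended when any of 5 arrays was left out singly, with an adjusted p of 0.207 without transgenic array 5. A second Gjb6 probe set overlapped between groups and did not pass (-0.34 ± 0.16, adjusted p = 0.39). Aqp4, the water channel of astrocyte endfeet, had 1 probe set that passed (-0.41 ± 0.09, adjusted p = 0.0359, chosen after its values were seen), and the brighter one did not (-0.29 ± 0.09, adjusted p = 0.144).

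Asb6, a subunit of a ubiquitin ligase, was the 1 gene lower by more than 2-fold. It read 2052, 1896 and 2198 in wildtype and 1017, 596.7 and 585.6 in transgenic bulb (-1.53 ± 0.33, adjusted p = 0.025), and the call ended when any of 5 arrays was left out singly (at most 0.107). Atg12, which takes part in building autophagosomes, fell from 6462, 6754 and 6137 to 4204, 3657 and 3282 (-0.80 ± 0.19, adjusted p = 0.0454), and lost its call when any of the 6 arrays was left out singly (at most 0.162). Pygm, a glycogen phosphorylase found in astrocytes, fell by 0.72 ± 0.16 (adjusted p = 0.0353, at most 0.128 without 1 array). Npy, a peptide of interneurons and of ensheathing glia, fell from 17360, 19860 and 17830 to 14430, 11680 and 12970 (-0.50 ± 0.10, adjusted p = 0.0135, at most 0.0669). Bgn and Vtn, a matrix proteoglycan and a matrix and blood protein, fell by 0.59 ± 0.12 and 0.52 ± 0.12 (adjusted p = 0.0179 and 0.0353), and lost their calls when any of 4 and 5 arrays, respectively, was left out singly (at most 0.0831 and 0.12). A second Bgn probe set overlapped between groups and stood at -0.03 ± 0.18 (adjusted p = 0.977).

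Mitochondrial and lipid-making genes had mostly negative changes and few calls, a count that turned on the scaling. Of 53 tested genes of oxidative phosphorylation 2 fell and 0 rose (0 higher by unadjusted p), 49 changes were negative, and the median was -0.17. Ndufb3, a subunit of complex I, read 14450, 12270 and 10570 in wildtype and 8169, 8113 and 8075 in transgenic bulb (-0.60 ± 0.12, adjusted p = 0.0142, at most 0.057 without 1 array). The other, Ndufb2, passed narrowly (-0.30 ± 0.07, adjusted p = 0.04996) and lost its call when any of the 6 arrays was left out singly. Of 26 tested genes of glycolysis and energy supply 1 fell and 22 changes were negative (median -0.14). Of 20 tested genes of cholesterol and fatty acid synthesis 0 passed in limma on their brightest probe set, 7 were lower and 0 higher by unadjusted p, and the median was -0.24. Fdps, an enzyme of cholesterol synthesis chosen after its values were seen, had a dimmer probe set that passed (-0.61 ± 0.13, adjusted p = 0.0252). Its brighter one overlapped between groups and did not (-0.32 ± 0.14, adjusted p = 0.337). Over all tested genes 3299 of 5664 changes were negative. The medians of these 3 lists stayed negative under each scaling tried, nearest to 0 under quantile scaling for glycolysis (-0.07) and oxidative phosphorylation (-0.11). Under bacterial control scaling 16 of 53 oxidative phosphorylation genes, 9 of 26 glycolysis genes and 7 of 20 cholesterol and fatty acid genes were called lower, with medians of -0.37, -0.34 and -0.44.

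**Figure D4:**
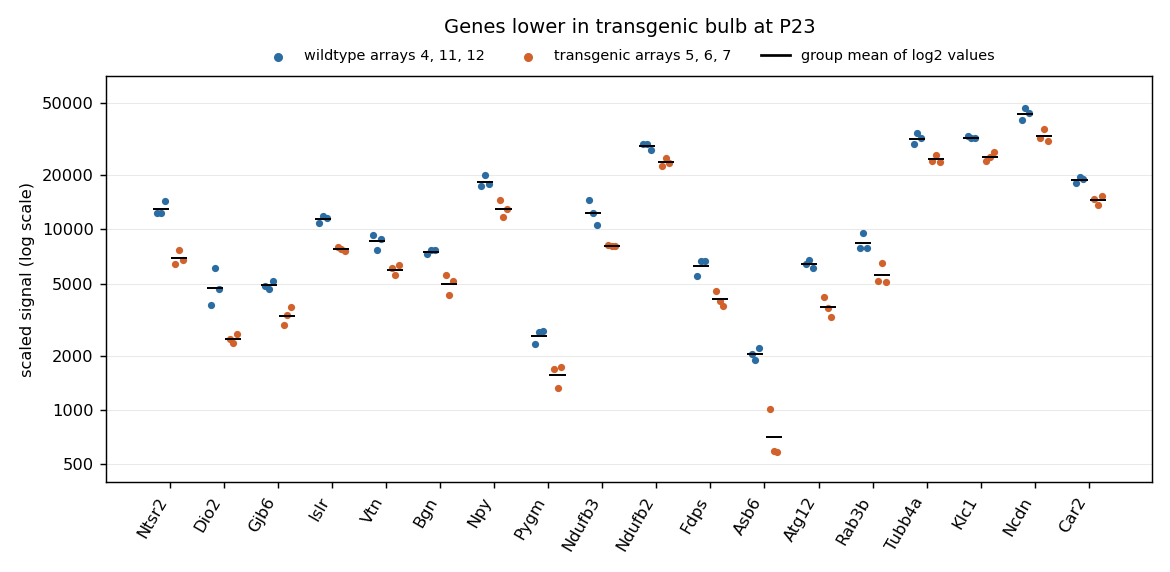
Scaled signal (vertical axis, log scale) of 18 genes with a probe set called lower in transgenic bulb at P23, 1 point an array, with bars at the mean of the log2 values. Fdps is drawn on its dimmer, called probe set. Asb6 shows the widest gap, with transgenic array 5 at 1017 above the other 2, and the bright genes such as Ncdn and Klc1 shift by less than 1.4-fold. Dimmer Klc1 probe sets, not drawn, overlapped between groups and stood at log2 changes of 0.02 and -0.04.

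Besides arrays left out, some settings ended calls of genes described above and followed through the settings. Bacterial control scaling ended those of Mt3, Gclc, Fth1, Srxn1, Gstp1, Klf6, Ier3, Serpina3n, Ighm and Foxj1, with adjusted p from 0.0509 to 0.297. Fitting the P23 arrays alone ended those of Mt3, Nqo1, Srxn1, Gstp1, Tnc, Nfe2l2, Klf6, Ier3, Ighm and Foxj1 among the higher genes and of Gjb6, Pygm, Ndufb2, Car2 and Ncdn among the lower ones. A fit without the filter, which adjusts over more probe sets, ended those of Mt3, Nfe2l2, Sparc, Tnc, Abca1, Apod, Ighm and Foxj1 and, among the lower genes, of Asb6, Atg12, Pygm, Npy, Bgn, Vtn, Gjb6, Ndufb2, Ndufb3 and Ncdn. Moderation without a trend ended those of Mt3, Fth1, Gstp1 and Foxj1 and of the same lower genes except Pygm, and also of Car2. Quantile scaling ended those of Atg12, Bgn, Vtn, Ndufb2, Ncdn and Car2.

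Near the floor, set at a signal of 209.1, 1168 of the 12422 probe sets lay at the floor on all 6 arrays. Those at the floor on every wildtype array and above it on every transgenic array numbered 36 (0.29 percent), and 27 showed the reverse (0.217 percent). Among the tested ones, Ccl2, a chemokine that draws monocytes, read 2571, 2290 and 2259 in transgenic bulb, at least 11.3-fold above wildtype at the floor. Cxcl1, a chemokine for neutrophils, read 1619, 1918 and 1835, at least 8.54-fold higher, and H2-Aa, a class II antigen-presenting chain, 1610, 1860 and 2119, at least 8.85-fold higher. With wildtype at the floor, these genes passed the filter because of their levels on the other arrays. Of the 4969 probe sets that the filter left out, groups did not overlap on 164 with higher transgenic values (3.3 percent) and 181 with lower ones (3.64 percent). A fit without the filter called 147 of 12422 (1.18 percent), among them 20 higher and 3 lower probe sets that the filter had left out.

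The sizes of these changes cannot be ranked where wildtype arrays lie at the floor, since the floor cuts them. Ptgr1, which inactivates leukotriene B4 and reactive aldehydes, read 462.4, 209.1 and 263.5 in wildtype, 1 array being at the floor, against 1563, 1300 and 1534 in transgenic bulb (2.31 ± 0.29 on the floored scale, adjusted p = 0.00708, and 2.32 without the floor). Ccl12, another monocyte chemokine, lay at the floor in wildtype and read 1013, 819.9 and 1115, at least 4.66-fold higher. A2m, a broad protease inhibitor, read 383, 209.1 and 270.3 against 1444, 1177 and 1241, again with 1 wildtype array at the floor (2.20 ± 0.28 on the floored scale, adjusted p = 0.00664, and 2.41 without the floor). Il4ra, the interleukin-4 receptor, had 1 probe set called, at 209.1, 209.1 and 217.4 against 544.5, 679.6 and 839.2 (adjusted p = 0.00637). With 2 of its 3 wildtype arrays at the floor the fitted 1.68 has no firm size, and it was 1.90 ± 0.35 without the floor. Its second probe set overlapped between groups (-0.06). Galectin-3, from Lgals3, read 222.9, 209.1 and 209.1 against 655, 711.1 and 543.8, with 2 wildtype arrays at the floor, and changed by 3.33 ± 0.71 without it. Without the floor as well, 12 such probe sets were called higher, 9 of them shared with the 20. Ptgr1, Ccl12, Il4ra and Lgals3 were among the 9, and A2m was not (adjusted p = 0.101). On the lower side Dut, which removes dUTP, read 784.1, 541.6 and 712.9 in wildtype and lay at the floor in transgenic bulb, at least 3.21-fold lower, but did not pass (adjusted p = 0.0831). Dvl3, of Wnt signalling, fell to the floor from 420.6, 638.3 and 759.4 and did not pass (adjusted p = 0.0513).

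**Figure D5:**
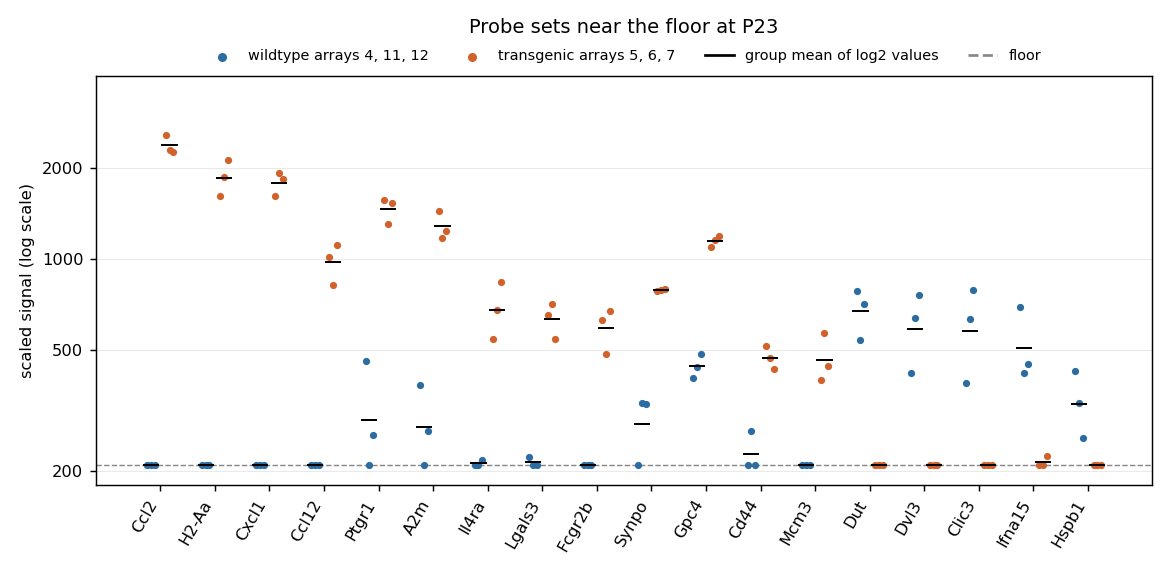
Scaled signal (vertical axis, log scale) of probe sets near the floor of 209.1 (dashed line) on the 6 arrays at P23, 1 point an array, with bars at the mean of the log2 values. Ccl2, H2-Aa, Cxcl1, Ccl12, Fcgr2b and the Mcm3 probe set lie at the floor on all wildtype arrays, and Dut, Dvl3, Clic3 and Hspb1 on all transgenic arrays.

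Probe sets of the same gene often disagreed. Of the called genes with more than 1 tested probe set, 1 had all of them called and 29 did not, and in 11 the signs differed. Lcn2, lipocalin 2 of acute inflammation, read 209.1, 1165 and 307.5 in wildtype and 3371, 2031 and 1765 on one probe set (2.44 ± 0.46, adjusted p = 0.00975), while its brighter probe set stood at -0.02 ± 0.21. Txnip, which inhibits thioredoxin, rose by 1.20 ± 0.16 on one and stood at -0.04 ± 0.23 on the other. A dim probe set of the ribosomal gene Rpl19 rose by 2.11 ± 0.38 at P23 and was lower by 2.04 in transgenic bulb at 4 months, whereas its bright probe set stood at -0.05 ± 0.08. These 3 genes were named after their values were seen, and which probe set follows the gene's main transcript was not tested.

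Set against the arrays at 4 months, 113 of the 122 higher probe sets were again called higher there, 3 were called lower and 6 were not called. At 4 months 691 of all 7453 tested probe sets were called higher (9.27 percent) and 1443 lower (19.4 percent). The 6 not called were Gstp1, Srxn1, Gclc, Adh7, Slc39a4 and Ccn2, named after their values were seen. Gclc changed by 0.32 at 4 months (adjusted p = 0.0612), Srxn1 by 0.14 (0.427) and Gstp1 by 0.20 (0.0613), but for these 3 the difference between ages did not pass (interaction adjusted p = 0.248, 0.187 and 0.311). Ccn2 was the 1 of the 6 for which it did, rising by 1.11 at P23 and standing at 0.30 at 4 months (interaction -0.81, adjusted p = 0.0178). Of the 35 lower probe sets 24 were again called lower, 4 were called higher and 7 were not called. Over all tested probe sets the interaction was called positive on 263 (3.53 percent) and negative on 281 (3.77 percent). Among the P23 calls it was positive on 60 and negative on 5. Of these, 54 positive and 4 negative ones were on higher calls, and 6 positive and 1 negative on lower calls. On a lower call, a positive value means a smaller fall or a rise at 4 months. The P23 calls were picked on the same P23 values that enter the interaction.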

How the data were processed

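Total RNA of olfactory bulb was measured on 12 Affymetrix MG-U74Av2 arrays, 3 for each genotype and age. The deposited table holds a linear intensity for each of 12488 probe sets. The authors had scaled the arrays: the mean left after dropping 2 percent at each end is between 2499.391 and 2499.424 on all 12. The program behind them was not given in the sources used here. Array medians differed by 1.114 times at most, above a limit of 1.1, so each array was rescaled to the common median. Values under 209.142 (the 20th percentile) were raised to that floor and taken to log2. Without 66 controls, 7453 probe sets with a mean log2 above 9.43 were tested.

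limma 3.58.1 in R 4.3.3 fitted 4 group means (8 residual degrees of freedom, moderation with a trend), two-sided, with Benjamini-Hochberg adjustment over the tested probe sets and a threshold of 0.05. Probe sets that the filter left out were tested in the same fit without the filter. The fit was tested on simulated data. For arrays, their number limits the precision: 3 per group. Errors of log2 changes are standard errors. Symbols came from the platform annotation, updated through RefSeq (GRCm38.p6): 10833 probe sets had 1 symbol, 396 several and 1193 none. No deposited build is named, so gene coordinates are left out, and those printed belong to RefSeq's start site windows.

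Genes named were 28 fixed ones, the 20 largest called changes each way, up to 5 called members of each of 44 lists (or 2 uncalled ones), the 12 largest each way among filtered-out probe sets, the 8 largest interactions each way among P23 calls, and second probe sets. Members and lists were chosen with earlier results of these data known. Alternatives changed scaling, floor, filter, arrays fitted, moderation and array weights, and left out each array. Figures were drawn with matplotlib 3.10.9.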

Additional observations from a re-analysis of the deposited data

Results flagged for a closer look

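For 11 genes called at P23 (the 8 most positive and all 3 negative differences among genes at their brightest probe set) the transgene effect differed between the ages by the interaction test (limma, adjusted p under 0.05), where the value is the log2 effect at 4 months minus that at P23. The difference was positive for H2-Aa (2.57), Cd74 (2.40), Tyrobp (2.24), Lyz2 (2.16), S100a6 (2.14), Cd53 (1.95) and Cd68 (1.94), which rose at both ages. It was positive for Asb6 (1.95), lower at P23 and not called at 4 months. It was negative for Sgip1 (-1.18), which was higher at P23 and lower at 4 months, for Ccn2 (-0.81), and for Ntsr2 (-0.70), which was lower at both ages. At P23 S100a6, Cd53 and Cd68 rose by 0.64, 1.26 and 0.56. They lost these calls when any of 5, 4 and 5 P23 arrays, respectively, was left out singly (adjusted p at most 0.121, 0.218 and 0.14). Sgip1 rose from 3088, 2553 and 2911 to 4710, 4056 and 4654 at P23 (0.65 ± 0.12, adjusted p = 0.00758) and fell by 0.53 at 4 months (adjusted p = 0.00418).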

How the results depend on the processing

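No paired analysis was possible because no replicate number is shared between the groups. Of 88 named called probe sets, 37 kept their call in all 23 alternatives (34 of 66 higher, 3 of 22 lower), and 0 reversed. The 122 higher calls ranged from 89 to 153, and from 89 to 128 when 1 array was left out. The 35 lower calls numbered 20 as deposited, 15 under quantile scaling, 482 under bacterial control scaling, 16 with the P23 arrays alone, 13 without a trend and 60 with array weights, and between 12 (without transgenic array 5) and 39 when 1 array was left out. They were 13 without wildtype array 11, 19 without wildtype array 12, 18 and 20 without transgenic arrays 6 and 7, and 22 without wildtype array 10 at 4 months. The share of calls that were higher, 77.7 percent, became 90.1 percent under quantile scaling and 15.7 percent under bacterial control scaling. Listed genes called lower, 11, became 7 under quantile scaling, 95 under bacterial control scaling, 7 without the filter, 7 with the P23 arrays alone, 5 without a trend and 17 with array weights, and 3 (without transgenic array 6) to 12 when 1 array was left out. Positive interactions among P23 calls, 60, became 108 under bacterial control scaling, and negative ones, 5, became 3 there, 8 with array weights and 3 (without wildtype array 10 at 4 months) to 7 when 1 array was left out. Left-out probe sets called higher, 20, became 12 with neither floor nor filter, an alternative chosen after seeing the data. The cause was not tested. The 2 counts at the floor have no value without a floor. Signals near the floor limit what dim probe sets can show.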
